A study of Rattus norvegicus with 64 samples.

Results

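The 8 genes described here carry the thyroid hormone signal into and within brain tissue: the receptors Thra and Thrb, the transporter Slco1c1, the deiodinases Dio2 and Dio3, the binding protein Crym, and the targets Hr and Klf9. They were chosen by name, and all 8 were found among the 17260 gene rows and passed the filter on low counts. RNA was sequenced after ribosome depletion from 64 libraries of Long Evans rat entorhinal cortex, 32 of the medial part (MEC) and 32 of the lateral part (LEC), each dissected as layer II (LII) or as layers III to VI (LDeep). Every combination of region and layer had 5 libraries at postnatal day 2 (P2) and 4 at P9, then 3 at P23 and 4 at P45, and no group had received a treatment or carried a transgene. The study numbered its miRNA samples so that both layers of 1 rat share a number, but neither the labels nor the methods say so of these libraries, so p-values measure the spread between these libraries, and dissected tissue holds every cell type of the layer.

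Counted read pairs ranged from 3894334 to 11439143 per library. LII libraries were the shallower (median 6446202.5, against 7996422.5 for LDeep). Markers of deep layers were lower in LII for 6 of 6 genes, and markers of layer II were higher in LII for 3 of 3. There were 4 libraries that stood apart. The MEC LII library of P2 replicate 1 had a summed level of 25 CPM (counts scaled to the library's total) over 8 meningeal fibroblast markers and that of P2 replicate 3 had 42.1 CPM, against 795 to 1460 CPM in the other MEC LII libraries of that age. The MEC LDeep library of P2 replicate 1 had 1150 CPM of these markers, against 47.5 to 87.4 CPM in the other 4. That LDeep library also held 901 CPM of layer II markers and 440 CPM of deep markers, against 367 to 532 CPM and 641 to 1090 CPM in the other 4. MEC LII of the same number held 740 CPM of layer II markers, against 1100 to 1640 CPM in the other 4. Its deep markers were low too, at 355 CPM against 362 to 408 CPM, and its astrocyte markers were high, at 2320 CPM against 1110 to 1370 CPM. MEC LII of replicate 3 held 1100 CPM of layer II markers and 408 CPM of deep markers, near the other LII libraries. Whether these dissections held the labelled layers was not tested. The LEC LII library of P9 replicate 2 had 942 CPM over 8 oligodendrocyte markers, against 161 to 199 CPM in the other 3. Calls of the 8 genes and list counts that changed without these libraries are given both ways.

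Thyroxine (T4) is the main form of the hormone in blood, and Slco1c1 carries it across the blood-brain barrier and into astrocytes. There, Dio2 converts T4 into the active hormone T3, while Dio3 inactivates both, and T3 acts in the nucleus through the receptors encoded by Thra and Thrb. Thyroid hormone is required for the timing of cortical maturation and myelination after birth in rats.

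To follow the 8 genes over age, the 4 libraries with the same age and number were summed, giving 16 sums (5, 4, 3, and 4 per age), and levels are given as log2 CPM. In edgeR's quasi-likelihood test with Benjamini-Hochberg (BH) adjustment, 5 of the 8 differed between older (P23/P45) and younger (P2/P9) rats. Thrb, Dio2, Hr, and Klf9 rose and Thra fell. Of all 13092 genes tested, 38.3% were higher and 39% were lower in the older rats, so the share of the 8 that differed lay below that of all genes. From P2 to P9 all 8 differed, 6 higher and 2 lower, where 27.7% of all genes were higher and 26.3% lower. From P9 to P23, Thrb, Dio2, and Klf9 rose and Thra and Crym fell, against 27.1% and 28.7% of all genes. From P23 to P45 none of the 8 passed the test in edgeR, where only 0.137% of all genes were higher and 0.321% lower. At that step 1 of the 8, Dio2, had an unadjusted p under 0.05 in edgeR, 2 had one in DESeq2, and 3 in limma voom, none of them past the adjustment. The 4 comparisons share libraries, so their counts do not stand apart from each other. The share of all genes whose sums do not overlap between ages was not counted. Statements on overlap of sums below therefore describe each gene and do not set it apart from other genes.

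**Figure D1:**
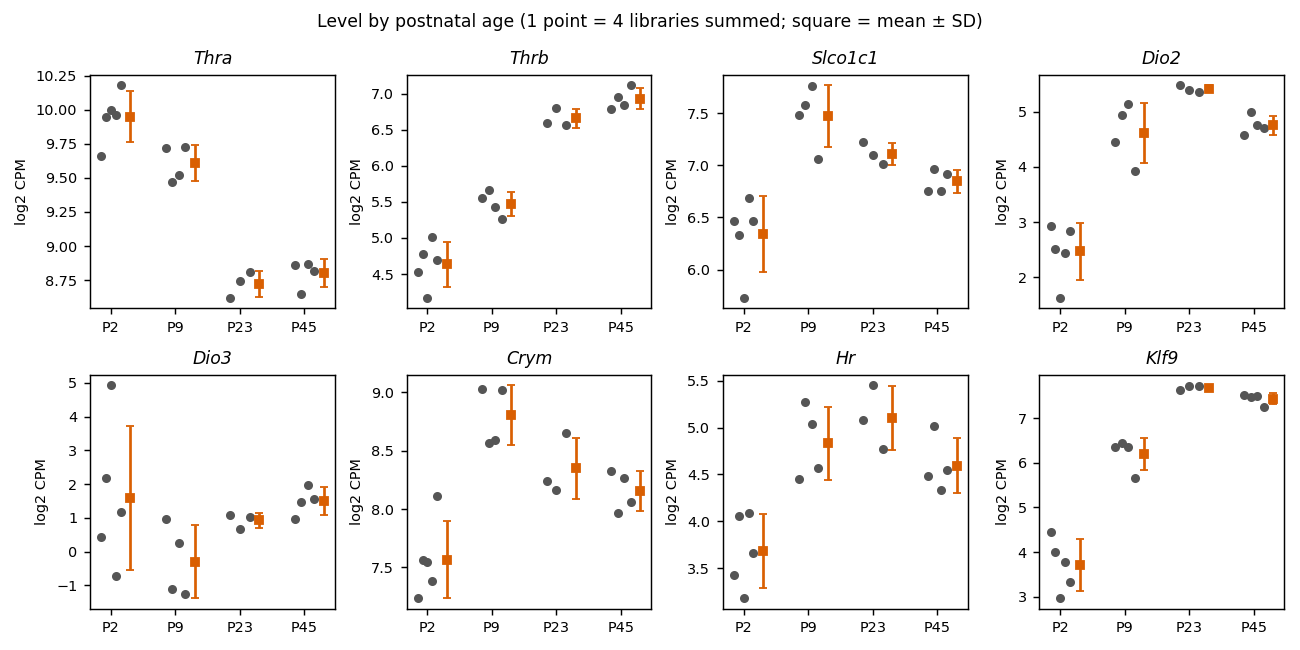
Level of each gene (log2 CPM, vertical axis) at each postnatal age. Points are sums of the 4 libraries with the same number, and squares with bars are means ± SD. Klf9 rose from a mean of 3.71 at P2 to 7.68 at P23, and Dio3 spread from -0.71 to 4.92 at P2.

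Thra, on chromosome 10 of Rn6 (86657285 to 86684935, plus strand, 10 exons), encodes the receptor that predominates in developing brain. Its log2 CPM at P2 was 9.66, 9.95, 10, 9.96, and 10.18. At P9 it was 9.72, 9.47, 9.52, and 9.73, at P23 8.62, 8.74, and 8.81, and at P45 8.86, 8.65, 8.87, and 8.82. All 7 sums of the older rats lay below all 9 of the younger rats. The fall from P2/P9 to P23/P45 had a log fold-change (LFC) of -1.02 ± 0.07 (SE, BH adjusted p = 9.9e-10), and most of it lay between P9 and P23 (LFC -0.89 ± 0.11, BH adjusted p = 2.7e-06). Fewer cells of a type and less RNA per cell cannot be told apart in such bulk tissue. The last exon of Thra overlaps Nr1d1 on the opposite strand. Reads were counted by strand, and Nr1d1 reached at most 6.9 log2 CPM in any library, against at least 8.23 for Thra.

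Thrb, on chromosome 15 (8890578 to 9239815, minus strand, 12 exons), encodes the second receptor and moved the opposite way. Its log2 CPM was 4.53, 4.78, 4.17, 5.01, and 4.69 at P2 and 5.55, 5.66, 5.43, and 5.27 at P9. It was 6.6, 6.81, and 6.57 at P23 and 6.79, 6.96, 6.85, and 7.12 at P45. No sum of one age overlapped with those of the age before, except that 1 sum of P45 lay below the highest of P23. Between P2/P9 and P23/P45, Thrb rose with an LFC of 1.73 ± 0.10 (BH adjusted p = 8.3e-11).

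Per kilobase of exon, Thra stayed above Thrb at every age, but by less in older rats. Counts were per gene and do not tell splice forms apart, so the difference is not a ratio of T3-binding receptors. The difference between Thra and Thrb was 6.33 ± 0.35 (SD, n = 5) in log2 CPM per kb at P2 and 5.15 ± 0.27 (n = 4) at P9. It was 3.08 ± 0.15 (n = 3) at P23 and 2.89 ± 0.20 (n = 4) at P45. The sums of the younger rats (4.83 to 6.85) did not overlap with those of the older rats (2.72 to 3.25).

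**Figure D2:**
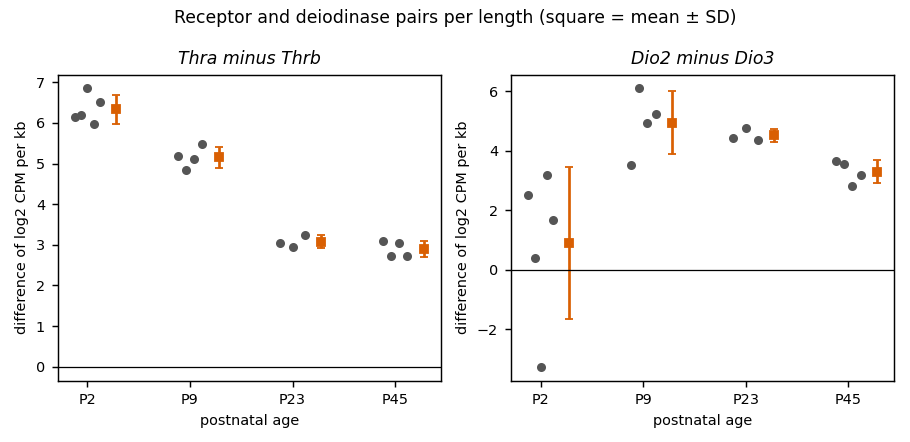
Difference of log2 CPM per kb of exon within the receptor pair (left) and the deiodinase pair (right) at each age, with 1 point per sum and squares for the mean ± SD. Thra exceeded Thrb by 6.33 at P2 and by 2.89 at P45, while the deiodinase difference ran from -3.26 to 3.18 at P2.

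Slco1c1, on chromosome 4 (175729709 to 175776749, plus strand, 15 exons), encodes the T4 transporter OATP1C1. Its mean was highest at P9, where the sums overlapped with those of P23. Its log2 CPM was 6.47, 6.33, 5.73, 6.69, and 6.47 at P2, and 7.48, 7.58, 7.76, and 7.06 at P9. It was 7.22, 7.1, and 7.01 at P23 and 6.75, 6.96, 6.75, and 6.92 at P45. All P9 sums lay above all P2 sums, and the rise had an LFC of 1.12 ± 0.15 (BH adjusted p = 1.7e-05). The difference from P9 to P23 was -0.38 ± 0.18 and did not pass the test (edgeR, BH adjusted p = 0.074). It passed when P2 replicates 1 and 3 were left out (LFC -0.37 ± 0.13, BH adjusted p = 0.023). Over the whole span the older and younger rats differed by only 0.05 ± 0.12 (BH adjusted p = 0.71). Of 8 endothelial markers 4 were also higher at P9 than at P2 (2 without P2 replicates 1 and 3, and 2 without P9 replicate 2) and of 8 astrocyte markers 6 were higher and 1 lower, with summed endothelial levels of 143 to 511 CPM at P2 and 182 to 522 CPM at P9. Their part in the rise of Slco1c1 was not tested.

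Dio2, on chromosome 6 (114479638 to 114489443, minus strand, 2 exons), encodes the enzyme that makes T3. Its log2 CPM was 2.93, 2.52, 1.63, 2.44, and 2.84 at P2 and 4.46, 4.94, 5.13, and 3.93 at P9. It was 5.48, 5.4, and 5.36 at P23 and 4.58, 4.99, 4.75, and 4.71 at P45. No P9 sum overlapped with P2 and all P23 sums lay above those of the 3 other ages. Dio2 rose 4.48-fold from P2 to P9 (LFC 2.16 ± 0.24, BH adjusted p = 2.1e-06) and again from P9 to P23 (LFC 0.73 ± 0.25, BH adjusted p = 0.021). That second rise did not pass the test without P9 replicate 1, P9 replicate 4, or P23 replicate 1 (LFC 0.56 to 0.70), and not in the MEC taken alone (LFC 0.38 ± 0.30, BH adjusted p = 0.33), while in the LEC it was 1.23 ± 0.22 (BH adjusted p = 0.00014). The difference between the regions at this step was not tested. The difference of -0.65 ± 0.25 from P23 to P45 had an unadjusted p of 0.02 (edgeR, BH adjusted p = 0.42). Of 8 astrocyte markers 6 were higher and 1 was lower in the older rats, with summed levels of 791 to 4610 CPM at P2 and P9 and 3470 to 6320 CPM at P23 and P45. Their part in the age difference of Dio2 was not tested.

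Dio3, on chromosome 6 (134627278 to 134629138, plus strand, 1 exon), encodes the inactivating deiodinase and is an imprinted gene. At P2 its log2 CPM ranged over 5 sums as 0.44, 2.17, 4.92, -0.71, and 1.18. At P9 it was 0.97, -1.12, 0.24, and -1.27. It was 1.09, 0.67, and 1.03 at P23 and 0.96, 1.47, 1.98, and 1.57 at P45. The high P2 value came from replicate 3, whose 4 libraries stood at 5.42 (MEC LII), 5.49 (MEC LDeep), 2.31 (LEC LII), and 4.06 (LEC LDeep), the first of them on 449 read pairs, where the MEC LII libraries of P9 held 2 to 4 pairs each. From P2 to P9 the fitted LFC was -3.06 ± 0.93 (edgeR, BH adjusted p = 0.011). That call rested on 1 replicate number. Without P2 replicate 3 it was -1.19 (BH adjusted p = 0.081), and without both P2 replicates 1 and 3 it was -1.38 ± 0.57 (BH adjusted p = 0.054). It also did not pass in limma voom (LFC -2.15, BH adjusted p = 0.1), nor in the LEC alone (-1.44 ± 0.65, BH adjusted p = 0.079), while the MEC alone gave -4.86 ± 1.24 (BH adjusted p = 0.005). Older and younger rats differed by -0.23 ± 0.67 (BH adjusted p = 0.76). Per kilobase, Dio2 exceeded Dio3 by 4.94 ± 1.07 (SD, n = 4) in log2 CPM at P9 and by 3.30 ± 0.39 (n = 4) at P45. At P2 the difference was 0.90 ± 2.55 (n = 5), with Dio3 the higher in replicate 3.

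Crym, on chromosome 1 (189944895 to 189960066, minus strand, 9 exons), encodes mu-crystallin, which binds T3 in the cytosol. It rose from 7.24, 7.56, 7.55, 7.38, and 8.11 log2 CPM at P2 to 9.03, 8.57, 8.59, and 9.02 at P9, with no overlap (LFC 1.22 ± 0.16, BH adjusted p = 1.4e-05). It was 8.24, 8.16, and 8.65 at P23 and 8.33, 7.97, 8.27, and 8.06 at P45. The fall from P9 to P23 lay at the threshold (LFC -0.45 ± 0.19, BH adjusted p = 0.049). It did not pass when either of P2 replicates 2 and 3, P9 replicates 1 and 4, P23 replicates 1 and 2, or any P45 replicate was left out (BH adjusted p from 0.053 to 0.18). The call was also lost with RLE size factors and with no filter on low counts. The regions differed in sign at this step, with -1 ± 0.26 in the MEC (BH adjusted p = 0.0059) and 0.24 ± 0.16 in the LEC (BH adjusted p = 0.22). The difference between the regions was tested over the whole age span only. Older and younger rats differed by 0.06 ± 0.12 over both regions (BH adjusted p = 0.69), by -0.38 ± 0.17 in the MEC alone (BH adjusted p = 0.059), and by 0.57 ± 0.10 in the LEC alone (BH adjusted p = 8.7e-05).

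Hr, on chromosome 15 (52241801 to 52261276, plus strand, 21 exons), encodes hairless, a corepressor of thyroid hormone receptors that T3 induces in rat brain. Its log2 CPM was 3.43, 4.06, 3.18, 4.09, and 3.66 at P2 and 4.45, 5.27, 5.04, and 4.57 at P9. It was 5.08, 5.45, and 4.77 at P23 and 4.48, 5.02, 4.33, and 4.55 at P45. The P9 sums lay above all P2 sums (LFC 1.16 ± 0.22, BH adjusted p = 3e-04), and the P9 and P45 sums overlapped. Older rats were above younger rats by 0.58 ± 0.16 (BH adjusted p = 0.0037). In the MEC alone Hr rose by 1.63 ± 0.26 from P2 to P9 (BH adjusted p = 0.00014) and in the LEC alone the value was 0.41 ± 0.30 (BH adjusted p = 0.28), and these were not tested against each other at this step.

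Klf9, on chromosome 1 (240908483 to 240933198, plus strand, 2 exons), encodes a zinc finger transcription factor that T3 induces directly. It rose furthest of the 8 between younger and older rats, 5.83-fold (LFC 2.54 ± 0.16, BH adjusted p = 4e-10). Its log2 CPM was 4.45, 4.01, 2.97, 3.79, and 3.34 at P2 and 6.35, 6.45, 6.35, and 5.67 at P9. It was 7.62, 7.71, and 7.71 at P23 and 7.51, 7.47, 7.5, and 7.25 at P45. Ages P2, P9, and P23 did not overlap, and all P45 sums lay below all P23 sums by a difference that did not pass the test (LFC -0.25 ± 0.23, edgeR, BH adjusted p = 0.89). All 6 neuron markers (median LFC 0.91) and all 6 microglia markers (1.34) were also higher in older than in younger rats. So were all 8 oligodendrocyte markers (median LFC 6.12) and 6 of 8 astrocyte markers (1.35), with 1 astrocyte marker lower. Summed neuron levels were 916 to 3160 CPM at P2 and P9 and 3590 to 5470 CPM at P23 and P45. The part of these cell types in the rise of Klf9 and Thrb was not tested.

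The promoters of 4 genes that changed between younger and older rats are shown for their letters, as RefSeq gives them on GRCr8, not on the build of the counts. Each run is the 250 bases before the gene's start, 5′ to 3′ on the gene's strand, and capitals would mark AGGTCA, the hexamer that thyroid hormone receptors bind, on either strand. Thra, which fell, has the window chr10:84197891-84198140 (plus strand), and of the genes that rose Thrb has chr15:10461447-10461696 (minus strand), Dio2 chr6:115410595-115410844 (minus strand), and Klf9 chr1:230126396-230126645 (plus strand).
Thra: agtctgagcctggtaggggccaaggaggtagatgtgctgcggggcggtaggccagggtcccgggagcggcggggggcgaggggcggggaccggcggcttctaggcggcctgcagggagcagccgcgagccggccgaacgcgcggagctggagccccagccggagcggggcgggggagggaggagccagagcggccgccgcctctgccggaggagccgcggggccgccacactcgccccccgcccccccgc
Thrb: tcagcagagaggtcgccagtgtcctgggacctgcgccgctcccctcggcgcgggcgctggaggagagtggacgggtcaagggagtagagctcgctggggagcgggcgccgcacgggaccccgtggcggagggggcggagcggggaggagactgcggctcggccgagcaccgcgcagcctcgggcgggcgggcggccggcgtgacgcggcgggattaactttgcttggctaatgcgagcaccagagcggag
Dio2: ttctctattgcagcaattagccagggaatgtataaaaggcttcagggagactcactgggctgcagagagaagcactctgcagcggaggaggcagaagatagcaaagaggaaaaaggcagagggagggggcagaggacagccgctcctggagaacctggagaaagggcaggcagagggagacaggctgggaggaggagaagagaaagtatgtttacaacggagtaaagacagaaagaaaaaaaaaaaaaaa
Klf9: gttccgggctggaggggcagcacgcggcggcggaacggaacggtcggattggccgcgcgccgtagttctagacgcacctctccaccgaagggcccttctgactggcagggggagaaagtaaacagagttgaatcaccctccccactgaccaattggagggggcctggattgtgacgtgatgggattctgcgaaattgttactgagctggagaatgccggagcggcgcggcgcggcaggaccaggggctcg
Windows were given for 5 of the 8 genes, 6 in all since Thra had 2, and none held the hexamer or its direct repeat with 4 bases between. Of all 33469 windows of this length 14.1% held the hexamer, and 0.00299% (1 window) held the direct repeat. These windows say nothing of sites further from the start. The 4 promoters differed in base composition, with 79.6% G and C in Thra, 74% in Thrb, 63.6% in Klf9, and 49.6% in Dio2. The other Thra window, further along the gene and not shown, held 44.8%, so the place of Thra in this order depends on the window.

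The next question was whether the genes differed between layers. In 1 fit of all 64 libraries with ages and regions weighted equally, 5 of the 8 differed between LII and LDeep. Slco1c1 and Dio2 were higher in LII, and Thra, Thrb, and Crym were lower. Of all 12521 genes tested, 23.5% were higher and 30.5% lower in LII, so the share of the 8 that differed lay near that of all genes.

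**Figure D3:**
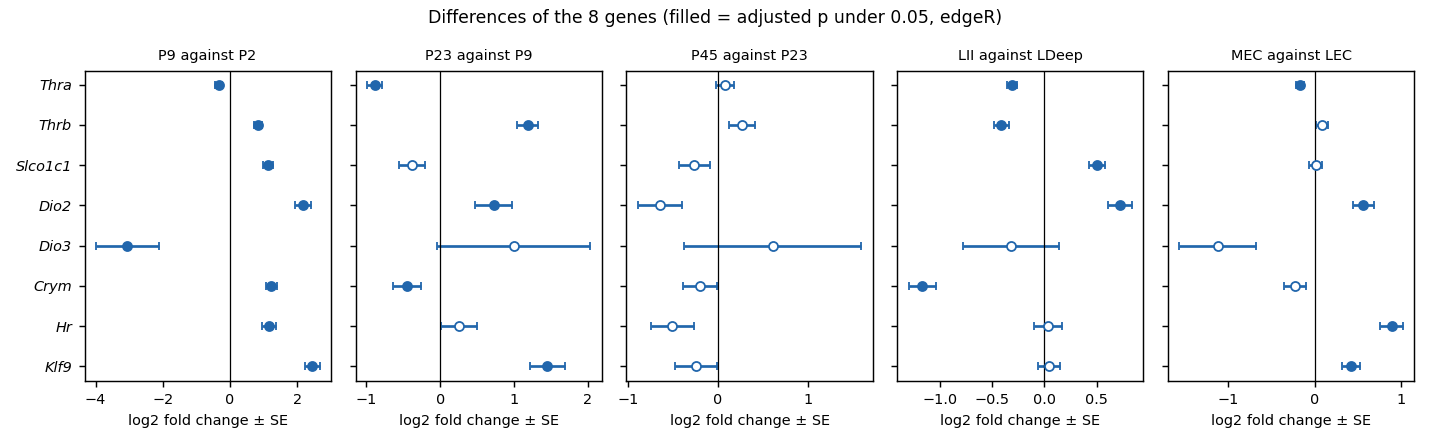
LFC ± SE (horizontal axis) of the 8 genes in 5 comparisons, with filled points for BH adjusted p under 0.05 in edgeR. Layer II against the deep layers ran from -1.17 for Crym to 0.72 for Dio2, and the medial against the lateral part reached 0.89 for Hr.

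Dio2 was 1.65-fold higher in LII (LFC 0.72 ± 0.12, BH adjusted p = 7.5e-07). At P23 it stood at 6.09, 5.85, and 5.81 log2 CPM in MEC LII and at 4.92, 5.2, and 5.08 in MEC LDeep. In the LEC at P23 it stood at 5.64, 5.53, and 5.42 in LII and at 5.11, 5.03, and 5.07 in LDeep. The layers did not overlap at P23 in either region, and at P2 and P9 they overlapped in both. Slco1c1 was 1.42-fold higher in LII (LFC 0.50 ± 0.08, BH adjusted p = 1.4e-07), with P23 values of 7.59, 7.34, and 7.27 against 6.85, 6.91, and 6.66 in the MEC and of 7.43, 7.41, and 7.26 against 6.97, 6.81, and 6.93 in the LEC. The layers of both regions were apart at this age too. At P23, with 3 libraries a group, the layers were apart in 39.3% of all genes in the MEC and 35.1% in the LEC. These shares were 1.96% and 12.3% at P2, 19.5% and 24.3% at P9, and 23.2% and 14.1% at P45.

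Markers of several non-neuronal cell types moved with these 2 genes, and those of oligodendrocytes mostly the other way. Of the 8 markers in each list, all endothelial markers, 6 astrocyte markers, and 7 meningeal fibroblast markers were higher in LII (1 meningeal marker was lower), and none was without counts. Summed endothelial levels ranged from 180 to 529 CPM in LII and from 143 to 406 CPM in LDeep. Summed astrocyte levels ranged from 1110 to 6320 CPM in LII and from 791 to 4310 CPM in LDeep, and meningeal levels from 25 to 1660 CPM and from 26.9 to 1150 CPM. Choroid plexus markers summed to 5.37 to 52.2 CPM in LII and 2.11 to 15.6 CPM in LDeep, where 1 of the 8 had no count and 3 of the 5 tested were higher in LII. Of 6 microglia markers 4 were higher in LII and none was lower, with sums of 49.3 to 400 CPM in LII and 68.9 to 343 CPM in LDeep. Of 8 oligodendrocyte markers 1 was higher and 4 were lower in LII (5 without the LEC LII library of P9 replicate 2), with sums of 133 to 5200 CPM in LII and 117 to 16800 CPM in LDeep. The part of these cells in the layer differences of Slco1c1 and Dio2 was not tested. Without the 3 MEC libraries of P2 that stood apart, the LFC was 0.58 ± 0.06 for Slco1c1 and 0.84 ± 0.10 for Dio2.

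Thra was lower in LII by an LFC of -0.31 ± 0.05 (BH adjusted p = 2.4e-07), and the layers were apart in both regions at P23 and P45. In the MEC at P45 it stood at 8.41, 8.23, 8.45, and 8.47 log2 CPM in LII and at 8.96, 8.73, 9.02, and 8.86 in LDeep. Thrb was lower in LII by -0.41 ± 0.07 (BH adjusted p = 1.8e-06). In the LEC alone its difference was -0.66 ± 0.10 (BH adjusted p = 1.7e-06), and in the MEC alone it was -0.15 ± 0.10 (BH adjusted p = 0.22). The test of the difference between regions gave 0.52 ± 0.14 (BH adjusted p = 0.046), where 1.25% of all genes passed in either direction. That call was lost without the LEC LII library of P9 replicate 2 (LFC 0.51 ± 0.14, BH adjusted p = 0.06) and without most single replicate numbers (LFC 0.46 to 0.53). Of 6 neuron markers 3 were lower in LII and none was higher, with summed levels of 935 to 5250 CPM in LII and 916 to 5470 CPM in LDeep, and their part in the layer differences of the receptors and of Crym was not tested.

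Crym had the widest layer difference of the 8, 2.25-fold lower in LII (LFC -1.17 ± 0.13, BH adjusted p = 4.5e-11). In the MEC at P9 it stood at 7.48, 7.51, 7.31, and 8.35 log2 CPM in LII and at 10.05, 9.58, 9.41, and 9.92 in LDeep. In the MEC at P23 it stood at 6.35, 6.35, and 6.8 in LII and at 8.61, 8.59, and 9.19 in LDeep. In the LEC at P23 it stood at 7.89, 7.9, and 8.21 in LII and at 8.96, 8.76, and 9.21 in LDeep. The layers did not overlap in the MEC at any age, nor in the LEC from P9 on, while at P2 the LEC layers overlapped. The difference was -1.80 ± 0.23 in the MEC and -0.52 ± 0.11 in the LEC, and these differed from each other by -1.28 ± 0.26 (BH adjusted p = 0.0024). The MEC LII library of P2 replicate 1, which stood apart in its markers, held only 2.76 log2 CPM of Crym against 6.84 to 7.74 in the other 4. Without the 3 P2 libraries the difference between the regions was -1.22 ± 0.16 (BH adjusted p = 1.4e-06).

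Dio3, Hr, and Klf9 did not differ between the layers by the test. Klf9 differed by 0.04 ± 0.10 (edgeR, BH adjusted p = 0.76), Hr by 0.04 ± 0.13 (BH adjusted p = 0.85), and Dio3 by -0.32 ± 0.46 (BH adjusted p = 0.57). Without the 3 P2 libraries that stood apart, Dio3 was lower in LII by -0.90 ± 0.39 (BH adjusted p = 0.048).

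**Figure D4:**
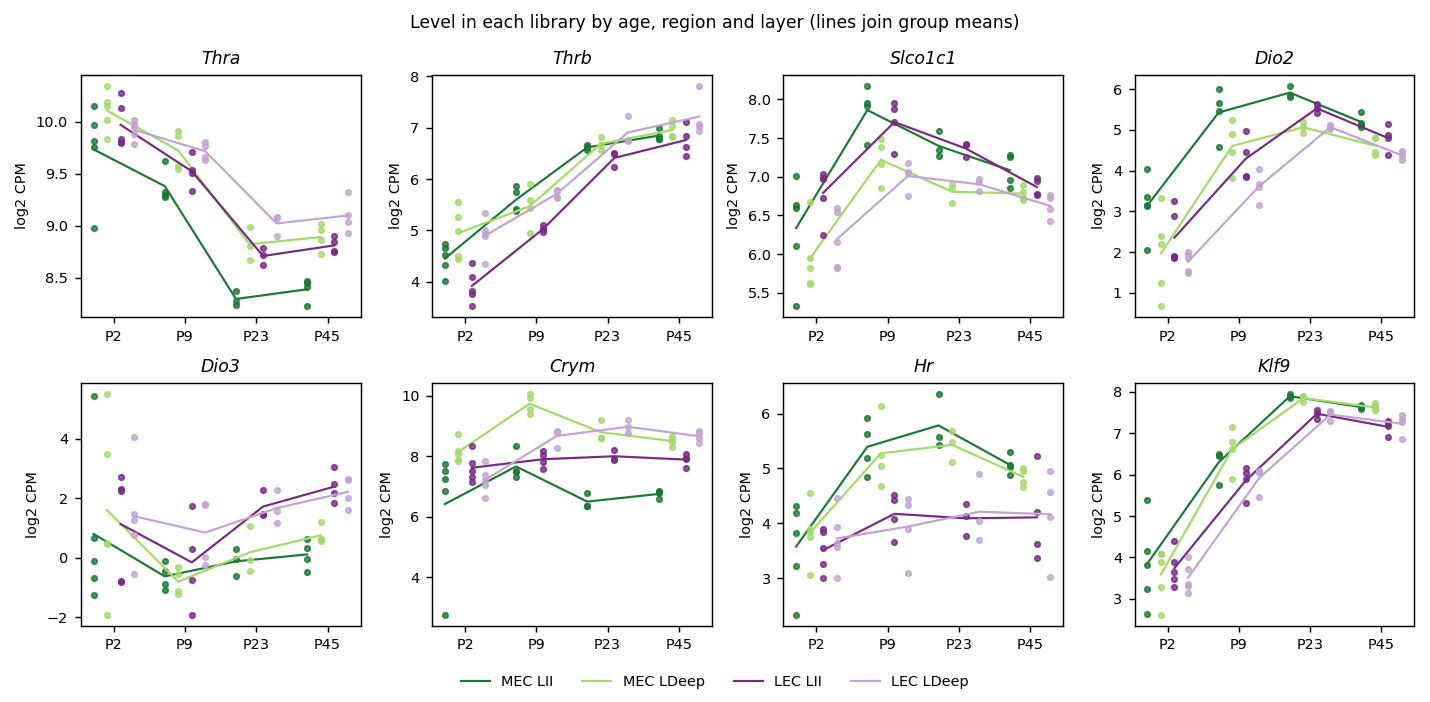
Level of each gene in each of the 64 libraries (log2 CPM, vertical axis) by postnatal age, coloured by region and layer, with lines joining group means. Crym at P23 averaged 6.5 in MEC LII and 8.79 in MEC LDeep, and Hr at P23 averaged 5.78 in MEC LII and 4.09 in LEC LII.

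Between the regions, 4 of the 8 differed. Dio2, Hr, and Klf9 were higher in the MEC and Thra was lower, where 8.87% of all genes were higher in the MEC and 6.53% lower. Hr differed most, 1.85-fold (LFC 0.89 ± 0.13, BH adjusted p = 1.1e-06). At P2 it averaged 3.58 ± 0.81 (SD, n = 5) log2 CPM in MEC LII and 3.51 ± 0.38 in LEC LII, which overlapped. At P9 it stood at 5.19, 5.92, 5.63, and 4.84 in MEC LII and at 3.67, 4.43, 4.52, and 4.08 in LEC LII. At P23 it stood at 5.57, 6.35, and 5.43 in MEC LII and at 4.36, 4.14, and 3.78 in LEC LII. The regions were apart at both of these ages in LII and in LDeep, and overlapped at P45, where LEC LII ranged from 3.37 to 5.23. The share of all genes with the regions apart in LII was 9.12% at P9, 27.9% at P23 (3 libraries a group), and 10.7% at P45. For LDeep the same shares were 6.6%, 15.8%, and 7.32%.

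Dio2 was 1.48-fold higher in the MEC (LFC 0.56 ± 0.12, BH adjusted p = 0.00033). The regions were apart in LII at P23 and overlapped at the other ages. Klf9 was 1.34-fold higher (LFC 0.42 ± 0.10, BH adjusted p = 0.0025). At P23 it stood at 7.85, 7.89, and 7.94 in MEC LII and at 7.57, 7.49, and 7.35 in LEC LII, and the regions were apart in both layers at P23 and P45. Thra was lower in the MEC by -0.17 ± 0.05 (BH adjusted p = 0.0073), with LII of the regions apart at P23 and P45. For comparison, 1 of 8 astrocyte markers and 1 of 8 endothelial markers (2 without the 3 P2 libraries or the P9 library) were higher in the MEC and none was lower, with summed astrocyte levels of 823 to 6260 CPM in the MEC and 791 to 6320 CPM in the LEC. Of 8 oligodendrocyte markers 4 were higher in the MEC (3 without the 3 P2 libraries and 6 without the P9 library), where their sum at P23 and P45 was 3620 to 16800 CPM against 846 to 7230 CPM in the LEC. Their part in the region differences was not tested.

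Dio3 was lower in the MEC by -1.11 ± 0.44, which did not pass the test (edgeR, BH adjusted p = 0.08). The older rats were apart. At P45 it stood at -0.03, 0.63, 0.32, and -0.47 log2 CPM in MEC LII and at 1.83, 2.49, 3.05, and 2.19 in LEC LII, on 3 to 13 and 13 to 48 read pairs. The regions did not overlap at P23 or P45 in either layer. Without the 3 P2 libraries that stood apart the difference was -1.63 ± 0.37 (BH adjusted p = 0.001), and without P2 replicate 3 it was -1.60 (BH adjusted p = 6.1e-05). DESeq2 called it with all libraries (LFC -1.16, BH adjusted p = 0.029). With the replicate number as a block, edgeR called it too (LFC -1.36 ± 0.30, BH adjusted p = 6e-04). Slco1c1 (0.01 ± 0.08, BH adjusted p = 0.95), Thrb (0.09 ± 0.07, BH adjusted p = 0.47), and Crym (-0.23 ± 0.13, BH adjusted p = 0.27) did not pass the test.

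The change of the region difference with age passed the test for 1 of the 8, Crym, against 4.38% of all genes in either direction. The MEC minus LEC difference of Crym was lower by -1.03 ± 0.26 in older than in younger rats (BH adjusted p = 0.0097). That call was lost in limma voom (LFC -0.84, BH adjusted p = 0.15). In LDeep the MEC was above the LEC at P2 (7.85 to 8.73 against 6.62 to 7.84) and at P9 (9.41 to 10.05 against 8.28 to 8.83). There 1.05% and 6.6% of all genes had these groups apart. In LDeep the regions overlapped at P23 and P45, and in LII the MEC was below the LEC at these 2 ages. For Hr, whose rise with age was 0.70 ± 0.19 in the MEC alone (BH adjusted p = 0.0044) and 0.30 ± 0.23 in the LEC alone (BH adjusted p = 0.25), the change of the region difference was 0.36 ± 0.27 (BH adjusted p = 0.54), so a difference in the age response of the regions was not shown. Without the 3 P2 libraries, Thra passed as well (LFC -0.33 ± 0.08, BH adjusted p = 0.0035, against -0.28 ± 0.09 and 0.082 with them). With the replicate number as a block in edgeR, Thra (-0.27 ± 0.08, BH adjusted p = 0.036) and Dio2 (-0.60 ± 0.18, BH adjusted p = 0.033) passed besides Crym.

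A change with age of the difference between LII and LDeep passed for none of the 8 in edgeR, where 8.8% of all genes passed. Thra and Crym had an unadjusted p under 0.05 (0.0313 and 0.0287), 2 did in DESeq2, and 1 did in limma voom, with 0 called by either. Without the 3 P2 libraries both passed in edgeR, with LFCs of -0.23 ± 0.08 for Thra (BH adjusted p = 0.035) and -0.64 ± 0.16 for Crym (BH adjusted p = 0.0048).

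Genes of the same pathway were taken from 4 lists. These lists were chosen with earlier results of these data known, so their counts are descriptions and no independent test. Their counts stand against 38.3% of all genes higher and 39% lower in older rats, 23.5% higher and 30.5% lower in LII, and 8.87% higher and 6.53% lower in the MEC. Of 14 genes known to respond to T3, 13 rose from younger to older rats (14 without P2 replicates 1 and 3) and none fell, with a median LFC of 1.93 against -0.01 over all genes. Among them Mbp (LFC 5.47 ± 0.26) and Mag (4.47 ± 0.19) rose, and both encode myelin proteins and are also among the 8 oligodendrocyte markers, of which all rose. The summed oligodendrocyte level ranged from 117 to 942 CPM at P2 and P9 and from 846 to 16800 CPM at P23 and P45, and its part in the median of the list was not tested. Between layers, 2 of the 14 were higher in LII and 7 lower, with Aldh1a1, a retinoic acid synthesis enzyme, at 1.11 ± 0.28 and Mbp at -0.96 ± 0.14 (median LFC -0.19 against -0.05 over all genes). Oligodendrocyte markers had a median LFC of -0.57 between layers, with 4 of 8 lower in LII, and their part in the count was not tested. Between regions, 6 were higher in the MEC (7 without the 3 P2 libraries or the P9 library) and 1 lower, with a median LFC of 0.36 against 0.01, led by Aldh1a1 (1.00 ± 0.28), Sema7a (0.83 ± 0.07), a membrane-bound semaphorin, and Mag (0.65 ± 0.14). Oligodendrocyte markers had a median LFC of 0.58 between regions, with 4 of 8 higher in the MEC and none lower. Their part in this count was not tested either.

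**Figure D5:**
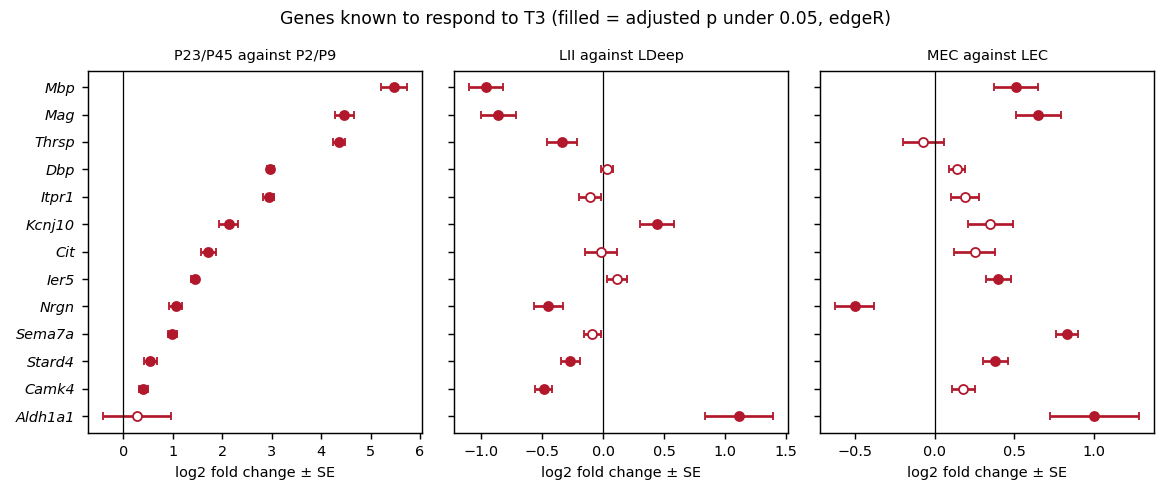
LFC ± SE (horizontal axis) of 13 of the 14 genes known to respond to T3, between ages, layers, and regions, with filled points for BH adjusted p under 0.05 in edgeR. In the age comparison 12 of those plotted were higher in older rats, up to 5.47 for Mbp.

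Of the 7 other transporters listed, 6 had a row in the files. Between younger and older rats 2 rose and 3 fell (median LFC -0.29 against -0.01 over all genes). Slco4a1, an organic anion transporter that accepts thyroid hormone, fell by 1.62 on the log2 scale (SE 0.14, BH adjusted p = 1.3e-08), and Slc7a5, the light chain of an amino acid transporter that also carries T3 and T4, had an LFC of -0.91 ± 0.05. Slc7a8, the light chain of a related transporter, rose (0.95 ± 0.11). Between layers 4 were higher in LII and 1 was lower, with Slco4a1 at 0.92 ± 0.12, Slc16a10 at 0.39 ± 0.13, and Slc3a2, the heavy chain that pairs with Slc7a5, at 0.26 ± 0.04. Without the 3 P2 libraries that stood apart, or the P9 library, none was lower. Between regions 2 were lower in the MEC (1 without the 3 P2 libraries), among them Slc16a10 at -0.51 ± 0.13.

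Of 6 genes of hormone metabolism and carriage, 3 rose with age and 2 fell. Dio1, the deiodinase of liver and kidney, had an LFC of 4.44 ± 0.42 (BH adjusted p = 4.7e-08) in the sums but did not pass the filter on low counts in the 64 single libraries. Wsb1, part of a ubiquitin ligase that acts on the Dio2 protein, fell (-1.05 ± 0.08), and Usp20, which removes ubiquitin from it, rose (0.23 ± 0.05). Between layers 1 of the 5 tested was higher in LII and 3 were lower. Ttr, the T4 carrier transthyretin and also one of the choroid plexus markers, was higher (1.43 ± 0.43, BH adjusted p = 0.0041), and Usp20 (-0.21 ± 0.04) and Wsb1 (-0.21 ± 0.07) were lower. Usp20 was the 1 gene of the list that differed between regions (0.13 ± 0.04).

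Of 13 receptor partners and cofactors listed, 12 had a row, of which 3 rose and 5 fell with age (6 fell without P2 replicates 1 and 3, median LFC -0.08). The retinoid X receptor Rxra, a dimer partner of thyroid hormone receptors, rose (0.82 ± 0.09, BH adjusted p = 1.8e-07), and Gps2, a subunit of the corepressor complex, fell (-0.51 ± 0.08). Between layers 5 were lower in LII (4 without the 3 P2 libraries) and none was higher, led by Rxrg (-1.27 ± 0.12, BH adjusted p = 1.5e-13), Ncor1 (-0.20 ± 0.05), and the coactivator Ncoa1 (-0.15 ± 0.06). Ncoa1 was the 1 gene of this list that differed between regions (0.24 ± 0.06).

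Over the 16 group means of log2 CPM, the genes with the pattern most like that of Klf9 were Gmpr, Extl1, and Thy1 (Pearson r 0.993 each), and those most like Thra were Pold2 (0.985), Tada2a, and Fam136a (0.981 each). Nrsn1 (0.982), Tbc1d9b (0.981), and Slc9a4 (0.978) were most like Thrb. Entpd4 and Fam163a (0.959 each) were among those most like Dio2, and Robo2 (0.949), Ctbs (0.937), and Lyn (0.936) most like Slco1c1. Shroom3 (0.943), Dnal4 (0.909), and Tfcp2 (0.893) followed Dio3. The values were lower for Crym, with Sstr4 (0.888), Stx1a (0.88), and Fbxo25 (0.878), and for Hr, with Grm2 (0.889), Neto1 (0.883), and Plekhg1 (0.882). Among the 8 genes themselves, Klf9 had r = 0.93 with Dio2, 0.91 with Thrb, and -0.88 with Thra over the same 16 means, and Hr had r = -0.69 with Dio3. These are descriptions over 16 groups that share ages and libraries.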

How the data were processed

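Before deposit, the authors used Trimmomatic 0.33 on the reads and STAR 2.4.0 to align them to Rn6. Subread 1.4.6-p1 (featureCounts) then assigned pairs to RefSeq exons by strand, and a pair lying on more than 1 gene was given to each. The deposited values are raw counts per gene and library.

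Tests were run in R 4.3.3. Unless stated, p-values come from edgeR 4.0.16 (quasi-likelihood, TMM scaling, filterByExpr), with BH adjustment over all genes tested and a threshold of 0.05. For age, the 4 libraries with the same age and number were summed (24595988 to 34587179 read pairs per sum). Layers, regions, and their changes were tested in 1 fit of 64 libraries with 16 group means. Log2 CPM used a prior count of 2. An SE is the LFC divided by the square root of the F statistic. The 100 pairs of replicates within groups all differed by more than sampling noise (chi-square per degree of freedom at least 3.08), so none was a copy of another. This cannot show whether same-numbered libraries of different groups are independent. Each library was counted as 1 sample for layers and regions, and each sum for age. Data were simulated for P23/P45 against P2/P9 (12967 genes) with independent sums. At each fold 50 genes were changed, all with a mean count over 50. There, 88% of genes changed 1.5-fold and 96% of genes changed 2-fold were recovered, and 2.05% of calls were false. Far more genes differed in the measured data, so these rates need not hold for them, nor for genes of lower counts.

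The replicate numbers were not taken as pairs, since neither the labels nor the methods say that same-numbered libraries come from 1 rat. Their deviations from the group means correlated more on average (mean r 0.134) than those of different numbers (-0.043). Tests without the block may therefore ignore a shared rat. Alternatives were RLE size factors, DESeq2 1.42.0, limma 3.58.1 voom with quantile normalization as the study used, other filters, 1 region alone, the 64 libraries unsummed, a block for the number, and leaving out each number. All 8 genes were named in every comparison. Of each list, up to 3 genes that passed the test with the largest LFC were named, and as like patterns the 3 genes with the highest r among those with a mean of at least 10 CPM. Of the genes so chosen, 4 are not reported here. Genes and lists were chosen with earlier results of these data known.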

Additional observations from a re-analysis of the deposited data

Results flagged for a closer look

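Of 96 groups of 4 or 5 libraries (8 genes in 12 groups each), 8 held a library far from the rest, where chance alone flags about 1 in 20. Crym stood at 2.76 log2 CPM in the MEC LII library of P2 replicate 1, and the next lowest library of that group was at 6.84. Dio3 stood at 5.42 in MEC LII of P2 replicate 3, and the next highest was at 0.65. In MEC LDeep of P45 replicate 2 Dio3 was at 1.19, above 0.64. The MEC LII library of P9 replicate 4 was high in Thra (9.62, next 9.33) and low in Klf9 (5.76, next 6.44). The LEC LDeep library of the same number was low in Klf9 (5.47, next 6.06) and in Crym (8.28, next 8.76). Thrb stood at 7.82 in LEC LDeep of P45 replicate 4, above 7.07.

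Differences between groups under the same contrast passed a test of the difference for 2 genes. Of all genes, 1.25% passed for the layer difference between regions and 4.38% for the change of the region difference with age. The layer difference of Crym differed between MEC and LEC by -1.28. Its region difference changed with age by -1.03, a call lost in limma voom. The layer difference of Thrb differed between MEC and LEC by 0.52, a call lost in 17 recomputations.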

How the results depend on the processing

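Counts and LFCs were recomputed under up to 12 kinds of alternative (the block only for layers and regions, unsummed libraries only for age, 1 region alone only where regions were not compared), 2 of them (without the P2 or P9 libraries that stood apart) chosen after the data were seen. The 30 member LFCs that passed the main test were recomputed 766 times, of which 724 kept direction and call, 41 lost the call, and 1 (Crym at P23 against P9 in the LEC alone) turned sign. Of the 41, 17 were the layer difference of Thrb between regions, 12 the fall of Crym from P9 to P23, and 4 each the rise of Dio2 at that step and the fall of Dio3 from P2 to P9. Without the P2 libraries, 103 genes differed between P45 and P23 (60 in the main test) and 241 in the layer difference between regions (156), and 2 members passed in the change with age of the layer difference and 2 in that of the region difference. In uncalled members the LFC between ages turned to -0.019 (Slco1c1), 0.63 (Dio3), and -0.006 (Crym), the change of the region difference of Klf9 to 0.14, and the layer difference between regions to 0.13 (Slco1c1) and -0.061 (Klf9). That last comparison kept 1 of 2 members with RLE size factors, with no filter, with at least 10 counts in every library, and without the P9 library. The 10-count filter left 4353 genes between layers (6767). The region difference of Klf9 changed with age by 0.001 with no filter. DESeq2 called 212 genes at P45 against P23, and 2 members in the change of the region difference.

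With limma voom and quantile normalization, 0 members passed in the change of the region difference, and values near 0 turned sign, namely 0.51 (Dio3) and -0.003 (Crym) between ages, -0.01 (Hr) between layers, -0.02 (Slco1c1) between regions, and for Klf9 0.084, 0.094, and -0.021 in the tests of the layer change, the region change, and the layer difference between regions. The 64 libraries unsummed gave 482 genes and 1 member (Dio2, edgeR, adjusted p = 0.013) at P45 against P23, and -0.016 for Crym between ages. That fit counts same-numbered libraries as independent for age. If they share a rat they are not, and its p-values are then too small, so the Dio2 call is not relied on. In the MEC alone, 17 genes passed at P45 against P23 and 434 in the change of the layer difference, and the LFC was -0.38 for Crym between ages and -0.57 for Dio3 in that change. In the LEC alone, 493 genes and 1 member (Crym) passed in that change, with -0.16 for Hr, and the LFC was -0.015 (Slco1c1) and 0.61 (Dio3) between ages, 0.24 for Crym at P23 against P9, 0.01 for Hr at P45 against P23, and -0.053 for Hr between layers.

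Of 96 pairs of same-numbered libraries, 55 had a correlation over 0.1 (-0.259 to 0.554, mean 0.134), against 59 of 300 with different numbers (mean -0.043), and a library correlated best with its own number in 104 of 192 comparisons with another tissue, which is a hint from the data and not the design. With the replicate number as a block, Dio3 passed between regions (-1.365, adjusted p = 6e-04), 3 members passed in the change of the region difference (Thra, Dio2, and Crym), which was 0.065 for Klf9, and 286 genes passed in the layer difference between regions. The cause was not tested for any of these changes.

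Leaving out each replicate number in turn gave 3 to 5 members at P23 against P9, 0 to 2 in the change of the layer difference, 1 to 2 in that of the region difference, and 1 to 2 in the layer difference between regions. The number of genes was 11 to 86 at P45 against P23 (fewest without P23 replicate 1), 302 to 666 in the change of the region difference, and 63 to 218 in the layer difference between regions. Members that did not pass moved across 0. Between ages Slco1c1 ranged from -0.011 to 0.098, Dio3 from -0.38 to 0.72, and Crym from -0.025 to 0.14. Between layers Klf9 ranged from -0.028 to 0.096, and between regions Slco1c1 from -0.007 to 0.031. In the change of the layer difference Dio3 ranged from -0.011 to 0.31 and Klf9 from -0.201 to 0.069, and in that of the region difference Klf9 ranged from -0.081 to 0.21. In the layer difference between regions Slco1c1 ranged from -0.082 to 0.085, Dio3 from -0.88 to 0.36, Hr from -0.002 to 0.31, and Klf9 from -0.089 to 0.059. Depth limits Dio3 most, with 0 to 60 read pairs in the libraries other than those of P2.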

Other observations

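At P2, the sum of replicate 3 was the lowest of 5 in 5 of the 8 genes (Thrb, Slco1c1, Dio2, Hr, and Klf9) and the highest in Dio3. At P9, the sum of replicate 4 was the lowest of 4 in 5 genes (Thrb, Slco1c1, Dio2, Dio3, and Klf9) and the highest in Thra. Klf9 stood at 2.97 log2 CPM in the first, against 3.34 to 4.45 in the other P2 sums, and at 5.67 in the second, against 6.35 to 6.45. Of the sums at other ages, P23 replicate 3 was the lowest of 3 in 4 genes and the highest in 3. P45 replicate 1 was the lowest of 4 in 4 genes and the highest in 2. How often each sum was the extreme over all genes was not counted. Several of the 8 genes also follow each other over the groups, so these counts are descriptions only.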
